A study of Mus musculus with 6 samples.

Results

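The genes described here are brakes on cell division: 7 cyclin-dependent kinase inhibitor genes (Cdkn1a, Cdkn1b, Cdkn1c, Cdkn2a, Cdkn2b, Cdkn2c and Cdkn2d), the antiproliferative genes Btg1 and Btg2, and the growth arrest gene Gas1. They were taken by name from the deposited array values. A gene was measured where a probe set carried its symbol and no other in the platform annotation, and the brightest such probe set stood for the gene. By this rule 9 of the 10 genes were measured, out of 19938 genes in all. Cdkn1a was not, because its probe set is also assigned to the non-coding gene 4930567H12Rik. That probe set is described separately.

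The samples were enterospheres, free-floating spheres of neural progenitor cells from the gut muscle of C57BL/6 mice at P0 (up to 12 hours old), each pooled from 3 animals. The spheres were grown with epidermal and fibroblast growth factor for 4 and then 5 days, and were moved to differentiation medium with ascorbic acid-2-phosphate 1 day before treatment. The T3 group (3 samples) then received 100 nM triiodothyronine for 1 day, the unit written nm in the labels being read as nM, and the control group (3 samples) received none. All 6 samples share the strain, the growth factors before and the differentiation medium during the experiment, and the spheres are a mixed culture that was not sorted for a cell type.

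Cyclin-dependent kinases drive a cell from growth into DNA replication and mitosis. The Cip/Kip proteins (products of the Cdkn1 genes) bind complexes of cyclins with their kinases, whereas the Ink4 proteins (products of the Cdkn2 genes) bind the kinases Cdk4 and Cdk6 and keep them from D-type cyclins, so that Rb stays active and E2f factors stay silent. Btg1 and Btg2 are related proteins that bind the Ccr4-Not deadenylase and slow proliferation, and Gas1 is a membrane-anchored protein that accumulates in arrested fibroblasts and acts as a coreceptor for hedgehog ligands. In other neural lineages thyroid hormone is known for moving precursors out of the cell cycle, and the design asks what the hormone does to transcripts of differentiating enteric progenitors.

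Values are log2 normalized signals, 1 array per sample. The array medians lay between 6.09 and 6.15, and the number of arrays limits the precision. The labels do not say that the samples of a group came from separate preparations, so the p-values here cover the variation among these 6 samples alone, which may be technical. The treatment was visible in known hormone-responsive genes: Klf9 differed by 1.86 ± 0.08 (SE) on the log2 scale, Hr by 1.92 ± 0.07 and Thrb by 1.30 ± 0.08, with adjusted p of at most 0.000308 (limma), while Dio3 at 0.54 ± 0.15 had adjusted p = 0.120. Of the listed enteric progenitor markers 8 of 10 were measured, and their mean signal per array was 11.26 to 11.31 in controls and 11.21 to 11.36 with T3. Fibroblast and mesenchyme markers were also bright, at 10.52 to 10.58 and 10.73 to 10.79, neuron markers had means of 9.66 to 9.80 and 9.95 to 10.02, glia markers 9.92 to 10.20 and 10.04 to 10.18, and markers of interstitial cells of Cajal 9.95 to 10.12 and 10.19 to 10.26. Smooth muscle markers lay at 7.63 to 7.76 and 7.65 to 7.71. Mean signals of the endothelial, leukocyte, epithelial and mesothelial lists stayed between 5.11 and 6.14 on every array. Of the markers, 3 of 9 neuron genes, 1 of 4 glia genes, 1 of 5 smooth muscle genes, 1 of 6 fibroblast genes and 1 of 3 interstitial cell genes rose, and 2 smooth muscle genes and 1 of 4 endothelial genes fell. Over all genes 2.28% rose and 0.823% fell. The fibroblast gene that rose was Thy1, at 1.24 (adjusted p = 0.00131, limma). The other 5 fibroblast genes differed by -0.13 to 0.10, so the higher list mean with T3 came from Thy1. No progenitor marker passed the test (limma, adjusted p under 0.05; 1 had an unadjusted p under 0.05), nor did any of the 4 leukocyte, 5 epithelial or 3 mesothelial markers (0 at an unadjusted p under 0.05). The part of cell composition in the values below was not tested, and in whole spheres fewer cells of a type and less RNA per cell cannot be told apart.

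None of the 9 measured brakes passed the test for a difference between T3 and control (limma, two-sided, Benjamini-Hochberg adjustment over all genes, adjusted p under 0.05). Over all genes 3.10% passed, 2.28% higher and 0.823% lower. The smallest adjusted p among the 9 was 0.277, that of Btg2. An unadjusted p under 0.05 was reached by Btg2 and Btg1, both lower with T3, against a background of 4.80% of all genes in that direction, 8.92% in the opposite one and 13.7% in either. The groups of 3 arrays did not overlap for Btg2, lower with T3, and for Cdkn2b, higher with T3. Over all genes 7.55% were separated downwards and 11.9% upwards. Of the 9 log2 differences 5 lay below 0 and 4 above it, with a median of -0.11, where the median of all genes was 0.0088 and 46.7% lay below 0. The median size of the difference without its sign was 0.11 for these genes and 0.08 for all genes.

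The measurements set bounds as well. The 95% interval of the T3 minus control difference stayed within 1.5-fold in either direction for all 9 genes, which held for 94.3% of all genes. The widest bound among the 9 representative probe sets was that of Cdkn2c, whose interval reached a fall of 1.36-fold (-0.44 on the log2 scale). The dimmer Cdkn1b probe set described below reached further. Its interval in the fit of single probe sets was -0.54 to -0.22, still within 1.5-fold. All 9 had control means above the median of every array, which is taken over all probe sets. Among the genes tested Cdkn2a, the dimmest of the 9, lay at percentile 47.6 by mean signal. Array signal understates fold changes, more so in dim probe sets, so these bounds apply to normalized signal.

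**Figure D1:**
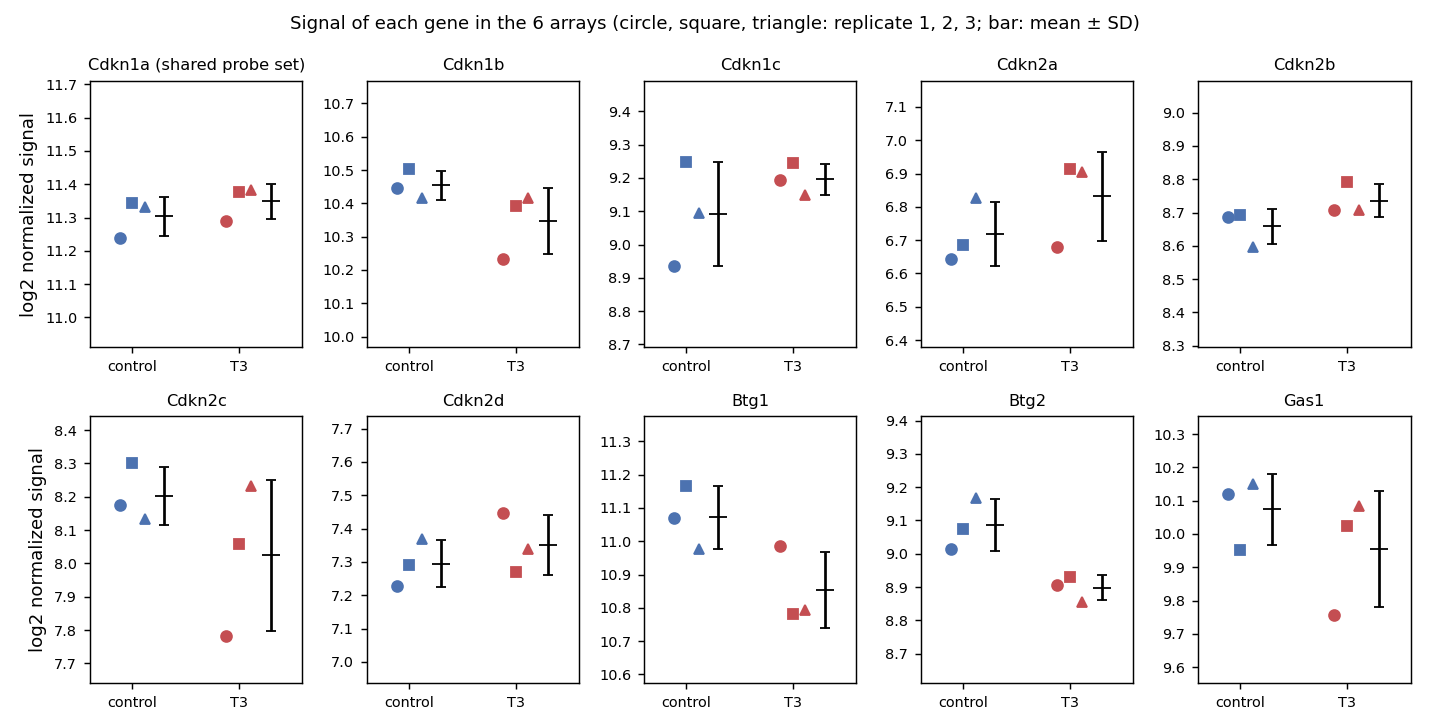
Log2 normalized signal (vertical axis) of each gene in the 3 control and 3 T3 arrays, with the group mean ± SD beside the points and the same height of axis in every panel. The groups separate for Btg2 and, narrowly, for Cdkn2b, and T3 replicate 1 is the lowest array for Cdkn1b, Cdkn2c and Gas1.

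Among the Cip/Kip genes, Cdkn1b encodes Kip1, an inhibitor of cyclin E and cyclin A complexes that is known to build up as precursor cells leave the cycle. Its representative probe set (10542310) read 10.45, 10.50 and 10.41 in the controls and 10.23, 10.39 and 10.42 with T3. The groups overlapped, since T3 replicate 3 lay just above control replicate 3, and T3 replicate 1 was the lowest array. The log2 difference was -0.11 ± 0.08 (SE), with a 95% interval of -0.28 to 0.07 and adjusted p = 0.660 (limma). Without T3 replicate 1 it was -0.05.

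A dimmer probe set of Cdkn1b (10542317), which the rule passes over, gave a larger difference. It read 7.11, 7.11 and 7.15 in the controls and 6.66, 6.79 and 6.78 with T3, so that the 3 T3 arrays all lay below the 3 control arrays by at least 0.31 between the nearest values. When each of the 21789 single-symbol probe sets was tested on its own, it differed by -0.38 ± 0.07 (SE), a 1.30-fold lower signal with T3, and passed with adjusted p = 0.0296 (limma), where 2.86% of these probe sets passed and 0.753% passed as lower. The call was lost in each of the 6 fits without 1 array (adjusted p from 0.0541 to 0.135, differences from -0.40 to -0.33). It was also lost after centring the arrays on their medians (adjusted p = 0.0572). With the replicate number as a block, adjusted p was 0.0691, though the numbers were not taken to pair the samples. The call was kept after quantile normalization was run again and after centring on the 75th percentile (adjusted p = 0.0329 and 0.0280). With trend and robust fitting it was also kept (adjusted p = 0.0375). The same held with array quality weights (adjusted p = 0.00194), under which 17.8% of all genes passed in the fit by gene.

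The brighter minus the dimmer Cdkn1b signal, which cancels whatever scales an array as a whole, was 3.33 ± 0.06 (SD, n = 3) in controls and 3.60 ± 0.03 (SD, n = 3) with T3. The 6 values did not overlap between groups. This contrast was chosen after the probe sets had been compared and is given as a description, with no test. The platform annotation lists both probe sets under the same RefSeq transcript of Cdkn1b and gives no position of either within the gene. The values can therefore not be assigned to a transcript form here. With the mean of both probe sets the difference was -0.24, with adjusted p = 0.141 (limma).

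**Figure D2:**
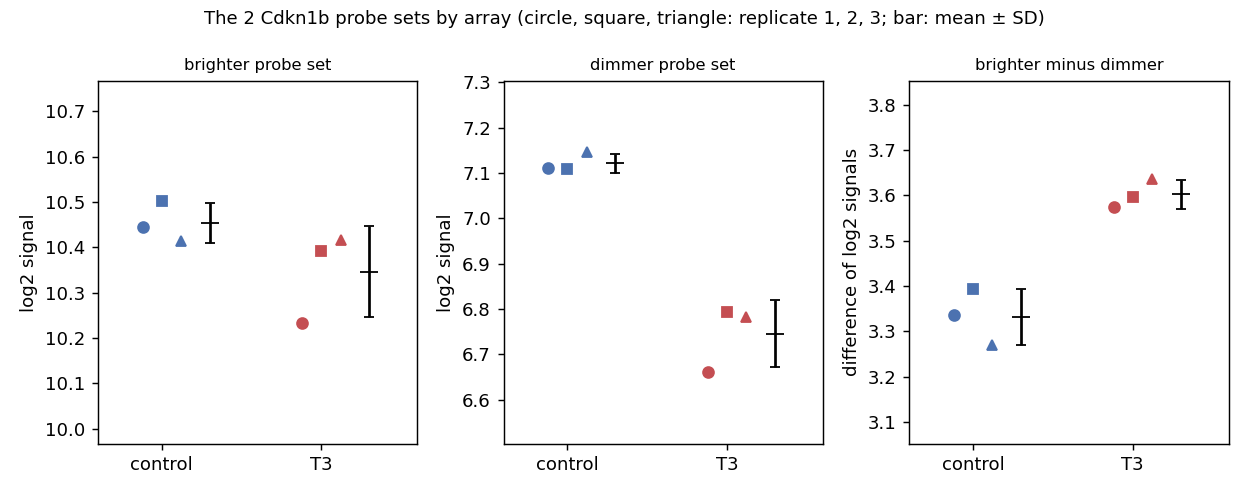
Log2 signal of the brighter (left) and dimmer (middle) Cdkn1b probe set in each array, and their difference (right), with group mean ± SD. The brighter set overlaps between groups, the dimmer set has means of 7.12 in controls and 6.75 with T3, and the difference has means of 3.33 and 3.60.

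Cdkn1c encodes Kip2, an imprinted inhibitor expressed from the maternal allele that acts in embryonic tissues. Its signal (probe set 10569429) was 8.93, 9.25 and 9.10 in controls and 9.19, 9.24 and 9.15 with T3. Control replicates 1 and 2 lay on either side of all 3 T3 arrays, and the control SD of 0.16 was the highest control SD of the 9 genes. The difference was 0.10 ± 0.09 (SE), with an interval of -0.10 to 0.31 and adjusted p = 0.751 (limma). It was 0.02 without control replicate 1 and 0.18 without control replicate 2.

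Cdkn1a encodes Cip1, the inhibitor induced by p53 after DNA damage. The probe set it shares with 4930567H12Rik (10443463) read 11.24, 11.34 and 11.33 in controls and 11.29, 11.38 and 11.38 with T3. The groups overlapped. The difference was 0.04 ± 0.07 (SE), with an interval of -0.11 to 0.20 and adjusted p = 0.888 in a limma fit of all 23410 probe sets with 1 or several symbols, of which 2.29% passed. In the RefSeq gene table the annotated genes lie on different chromosomes, so the second symbol may be an error of the platform annotation. The files do not settle which gene gave the signal.

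The Ink4 genes gave differences on both sides of 0. Cdkn2a and Cdkn2b are neighbours in the genome. The single Cdkn2a probe set (10514340) is annotated with both of its transcripts, 1 for the Ink4a protein and 1 for Arf, which stabilises p53, so the products cannot be told apart. It read 6.64, 6.68 and 6.83 in controls and 6.68, 6.91 and 6.90 with T3. T3 replicate 1 fell among the controls, and the difference of 0.11 ± 0.09 (SE) did not pass (adjusted p = 0.712, limma). It was 0.19 without T3 replicate 1 and 0.07 without T3 replicate 2.

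Cdkn2b encodes Ink4b, an inhibitor known to be induced by TGF-beta. Its signal (probe set 10514347) was 8.69, 8.69 and 8.60 in controls and 8.71, 8.79 and 8.71 with T3. Every T3 array lay above every control array, by as little as 8.71 against 8.69 for the nearest pair. The difference was 0.08 ± 0.07 (SE), with an interval of -0.08 to 0.23 and adjusted p = 0.753 (limma), so the separation came with a difference near the typical size over all genes. Without T3 replicate 2 or control replicate 3 it was 0.05.

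Cdkn2c encodes Ink4c, an inhibitor expressed in proliferating precursors during neurogenesis in the mouse. Its values (probe set 10515090) were 8.17, 8.30 and 8.13 in controls and 7.78, 8.06 and 8.23 with T3. The T3 arrays spread widely (SD 0.23, against 0.09 in controls), and T3 replicate 3 lay among the controls. The difference of -0.18 ± 0.11 (SE) had an interval of -0.44 to 0.08 and adjusted p = 0.608 (limma). Without T3 replicate 3 it was -0.28, with adjusted p = 0.384, and without T3 replicate 1 it was -0.06.

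Cdkn2d encodes Ink4d, which in mice helps to keep neurons from dividing. Its signal (probe set 10591517) ranged from 7.23 to 7.37 in controls and from 7.27 to 7.45 with T3. The ranges overlapped, with T3 replicate 1 above every control, and the difference of 0.06 ± 0.08 (SE) had an interval of -0.12 to 0.23 and adjusted p = 0.868 (limma). Without T3 replicate 1 it was 0.0087, and over the 6 fits without 1 array it reached 0.10.

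**Figure D3:**
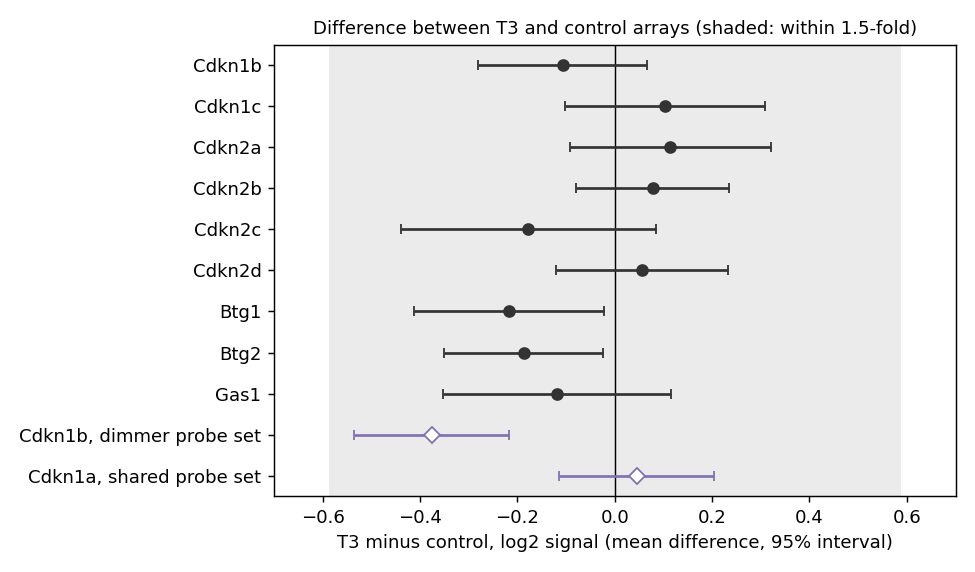
T3 minus control difference in log2 signal with its 95% interval for the 9 measured genes (filled circles) and for the 2 probe sets the rule leaves out (open diamonds, from fits of single probe sets). All intervals lie inside the shaded range of 1.5-fold, and those of Btg1, Btg2 and the dimmer Cdkn1b probe set lie below 0 before any adjustment for the number of genes.

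The Btg genes were the pair with the smallest p of the 9. Btg2 is an immediate early gene and p53 target that, in the mouse brain, marks progenitors about to produce neurons. Its signal (probe set 10357875) was 9.01, 9.07 and 9.17 in controls and 8.91, 8.93 and 8.86 with T3. All T3 arrays lay below all control arrays. The difference was -0.19 ± 0.07 (SE), a 1.14-fold lower signal, with an interval of -0.35 to -0.02, an unadjusted p of 0.0290 and adjusted p = 0.277 (limma).

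Btg1, its close relative, is a gene of quiescent cells. It read 11.07, 11.17 and 10.98 in controls and 10.99, 10.78 and 10.79 with T3 (probe set 10365971). T3 replicates 2 and 3 lay below all controls, and T3 replicate 1 lay just above control replicate 3. The difference was -0.22 ± 0.09 (SE), a 1.16-fold lower signal, with an interval of -0.41 to -0.02, an unadjusted p of 0.0336 and adjusted p = 0.301 (limma). Over all 17 alternative fits the Btg1 difference stayed between -0.28 and -0.17 and the Btg2 difference between -0.22 and -0.13. Btg1 passed with array quality weights (adjusted p = 0.0129), a fit in which 17.8% of all genes passed, and in none of its other fits. Btg2 passed in none (adjusted p from 0.123 to 0.574).

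The 250 bases before the annotated start are shown for Btg2, Btg1 and Cdkn1b, the genes with the smallest p among the probe sets examined, to let the promoters be compared. Capitals mark matches, on either strand, to AGGTCA, the hexamer that thyroid hormone receptors and other nuclear receptors bind, and to TGACGTCA, the cyclic AMP response element; the motifs were chosen with the sequences in view. The sequences are from RefSeq on GRCm38.p6, written 5′ to 3′ along the gene's strand, and the genome build behind the array annotation is not given in the sources used here. Btg2 lies on the minus strand (chr1:134079156-134079405), and Btg1 (chr10:96616751-96617000) and Cdkn1b (chr6:134920151-134920400) lie on the plus strand.
Btg2: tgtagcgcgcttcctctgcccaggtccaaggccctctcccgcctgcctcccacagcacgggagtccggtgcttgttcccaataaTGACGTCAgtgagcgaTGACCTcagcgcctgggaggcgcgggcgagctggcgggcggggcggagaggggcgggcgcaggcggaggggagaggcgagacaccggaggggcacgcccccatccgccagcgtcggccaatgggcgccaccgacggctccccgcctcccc
Btg1: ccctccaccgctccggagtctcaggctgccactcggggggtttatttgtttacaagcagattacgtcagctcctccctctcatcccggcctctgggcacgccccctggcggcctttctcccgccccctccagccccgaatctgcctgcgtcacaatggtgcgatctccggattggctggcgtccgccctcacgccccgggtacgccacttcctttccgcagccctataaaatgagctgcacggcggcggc
Cdkn1b: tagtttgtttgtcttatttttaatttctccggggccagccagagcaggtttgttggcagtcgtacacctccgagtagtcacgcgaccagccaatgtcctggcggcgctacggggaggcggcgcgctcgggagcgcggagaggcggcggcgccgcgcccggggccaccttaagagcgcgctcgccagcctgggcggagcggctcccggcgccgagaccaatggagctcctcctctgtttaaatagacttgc

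The Btg2 window held 1 TGACGTCA, starting 166 bases before the annotated start, and 1 AGGTCA on the opposite strand, starting 150 bases before it, with no overlap between them. The windows of Btg1 and Cdkn1b held neither. Windows were matched for 9 of the 10 genes (12 windows; Cdkn1c was not matched). AGGTCA was found in 3 of the 12 windows, of Btg2, Cdkn2a and Cdkn2c, and in 14.0% of all 32851 windows of this length. Cdkn2a and Cdkn2c each had another window without a match. TGACGTCA was found in 2 of the 12, of Btg2 and Cdkn2b, and in 1.55% of all windows. The matches are letters in a window and were not set against binding.

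Gas1 (probe set 10409833) had 10.12, 9.95 and 10.15 in controls and 9.76, 10.02 and 10.08 with T3. T3 replicates 2 and 3 lay within the control range and T3 replicate 1 below it. The difference was -0.12 ± 0.10 (SE), with an interval of -0.35 to 0.11 and adjusted p = 0.742 (limma). Without T3 replicate 1 it was -0.02, and without T3 replicate 3 or control replicate 2 it was -0.18. Of its partners in hedgehog signalling, 0 of 10 measured genes passed and 1 had an unadjusted p under 0.05 (limma), against 13.7% of all genes. Gli1, a transcription factor and target of the pathway, differed by 0.31 (adjusted p = 0.201), Gli2 by 0.17 (adjusted p = 0.429) and Gli3 by -0.17 (adjusted p = 0.446).

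T3 replicate 1 was the lowest of the 6 arrays for Cdkn1b, Cdkn2c and Gas1 and the highest for Cdkn2d. Among all pairs of the measured genes, the largest Pearson correlation in size over the 6 arrays was 0.97, between Cdkn1b and Cdkn2c. Next came -0.88 between Cdkn2a and Btg1, -0.76 between Cdkn1b and Cdkn2d, -0.73 between Cdkn2b and Btg2 and 0.69 between Cdkn2c and Gas1. These are descriptions of 6 arrays that share the treatment split and the normalization. The array quality weights were 6.18 for control replicate 1, between 0.41 and 0.42 for T3 replicate 1 and control replicates 2 and 3, and 1.69 and 1.32 for T3 replicates 2 and 3.

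The genes whose values followed each brake most closely over the 6 arrays, by Pearson correlation among all genes, were Ilf2 and Sae1 for Cdkn1b, Inpp5k and Ifna9 for Cdkn1c, Vps26c and B4galt4 for Cdkn2a, and Tex9 and Agbl4 for Cdkn2b. For Cdkn2c they were Ptgs2 and Saal1, for Cdkn2d Rny3 and Casp9, for Btg1 Ptprj and Cylc2, for Btg2 Diras1 and Arid3c, and for Gas1 Tgfbi and Cdk6, the kinase that the Ink4 proteins bind. The coefficients ran from 0.984 to 0.997, and as the highest among all genes over 6 points they describe these arrays only. None of the 18 genes passed the test for T3 (limma, adjusted p of at least 0.208). They were picked for following genes that did not pass, so this is no separate result.

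The cyclins and kinases that the inhibitors act on, and the Rb family and E2f factors downstream, did not pass singly either. Of 22 measured cyclins, cyclin-dependent kinases, Rb family members and E2f factors, 0 passed (limma) and 3 had an unadjusted p under 0.05, all higher with T3: Ccna2, the cyclin of S phase and G2, at 0.35 ± 0.11 (SE, adjusted p = 0.163), Ccne1, the cyclin of S phase entry, at 0.22 ± 0.07 (SE, adjusted p = 0.179) and E2f2 at 0.21 ± 0.08 (SE, adjusted p = 0.297). Of the 22, 18 had differences above 0, with a median of 0.08, where 53.3% of all genes lay above 0 and 8.92% had an unadjusted p under 0.05 and were higher. Of 13 measured proliferation markers 0 passed and 6 had an unadjusted p under 0.05, with 12 above 0 and a median of 0.22, against the same shares of all genes. Nusap1, a spindle protein, differed by 0.47 (adjusted p = 0.109), Top2a, the topoisomerase of dividing cells, by 0.34 (adjusted p = 0.103; 0.18 with the mean of its probe sets, adjusted p = 0.521) and the mitotic kinase Aurka by 0.26 (adjusted p = 0.129). The medians of both lists lay above 0 under each of the 3 other scalings of the arrays. Cdk1 stands in both lists, so their shares are not independent. All the related lists were chosen with earlier results of these data known, and their counts are given as descriptions.

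**Figure D4:**
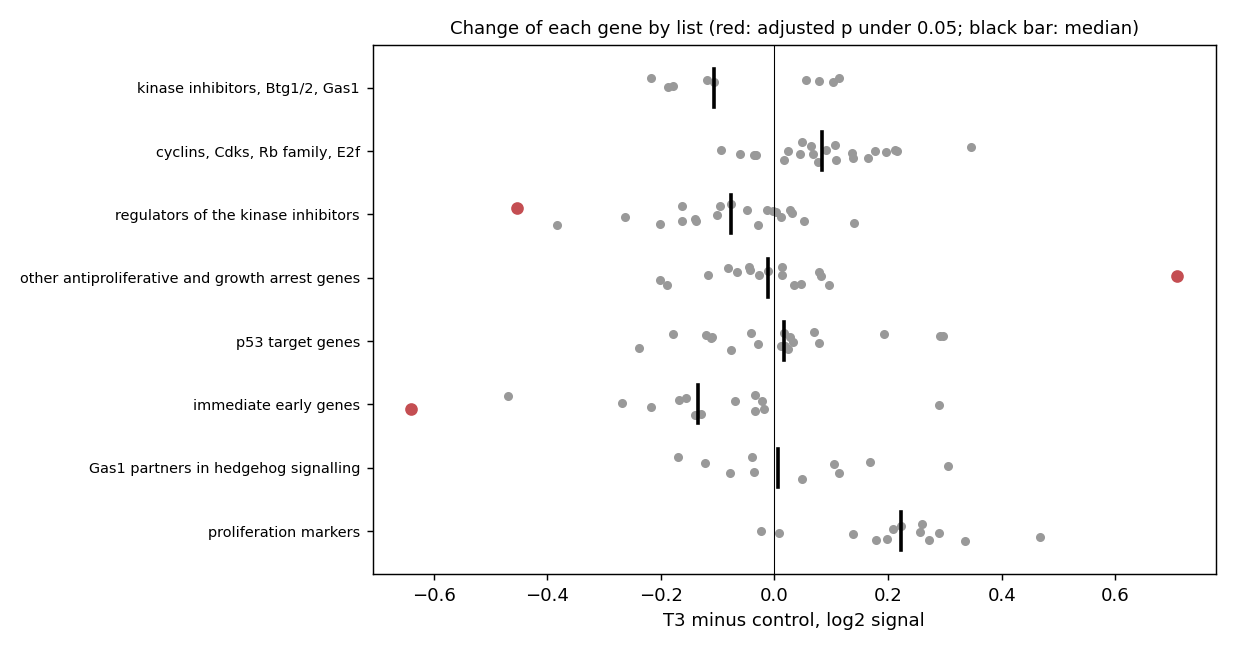
T3 minus control difference in log2 signal of each measured gene (points) in the described genes and the 7 related lists, with the list median as a black bar. Only Klf4, Egr2 and Gas6 among these genes pass the test (red), and the proliferation markers have the highest median, 0.22.

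Among genes that regulate the inhibitors, Klf4 fell. Klf4 is a transcription factor that activates Cdkn1a in other cells. Its signal was 8.34 ± 0.06 (SD, n = 3) in controls and 7.89 ± 0.10 (SD, n = 3) with T3, a difference of -0.45 ± 0.08 (SE) with adjusted p = 0.0207 (limma). Its call was lost without T3 replicate 2 or 3 or control replicate 1 or 3 (adjusted p from 0.0594 to 0.0908). The other 20 of 21 measured regulators did not pass, where 0.823% of all genes passed as lower and 2.28% as higher. Tbx2, a repressor of Cdkn2a and Cdkn1a, differed by -0.38 (adjusted p = 0.0938) and Mdm4, an inhibitor of p53, by -0.26 (adjusted p = 0.136). The list median was -0.08, with 15 of 21 below 0, where 46.7% of all genes lay below 0. After centring on the array median the list median was -0.05, with 12 below 0. That centring raised all genes, whose median went from 0.0088 to 0.039, with 7156 of 19938 below 0.

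Of 17 other antiproliferative and growth arrest genes, 1 rose, where 2.28% of all genes passed as higher. Gas6, a secreted ligand of Axl family receptors that was named for its induction in arrested fibroblasts, rose from 9.72 ± 0.12 (SD, n = 3) to 10.43 ± 0.05 (SD, n = 3), a difference of 0.71 ± 0.08 (SE) with adjusted p = 0.00367 (limma). It passed in all 15 alternative fits (adjusted p of at most 0.0219). Ndrg1 differed by -0.20 (adjusted p = 0.255) and Gas2 by -0.12 (adjusted p = 0.585). The list median was -0.01, and its sign turned with centring on the array median (0.02) and with array quality weights (0.0084). The median of all genes in these fits was 0.0088, 0.039 and 0.016.

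Btg2 belongs to both the immediate early genes and the p53 targets, which were set beside it. Of 14 immediate early genes Egr2, a zinc finger factor, fell from 9.23 ± 0.07 (SD, n = 3) to 8.59 ± 0.19 (SD, n = 3), a difference of -0.64 ± 0.10 (SE) with adjusted p = 0.0144 (limma), a call lost without control replicate 1 (adjusted p = 0.0567). Egr3 differed by -0.47 (adjusted p = 0.0557) and Zfp36, an mRNA decay factor, by -0.27 (adjusted p = 0.162). Egr2 alone passed in this list, where 0.823% of all genes passed as lower. In the list 4 genes had an unadjusted p under 0.05 (limma), against 13.7% of all genes. Among them was Fosl1, the only gene of the list above 0, at 0.29 (adjusted p = 0.169). Of the 14, 13 lay below 0, with a median of -0.13, where 46.7% of all genes lay below 0. After centring on the array median 11 of the 14 lay below 0, against 7156 of all 19938 genes. Of 19 p53 targets 0 passed (limma) and 3 had an unadjusted p under 0.05: Zmat3 at 0.29 (adjusted p = 0.0550), the ribonucleotide reductase subunit Rrm2b at 0.30 (adjusted p = 0.0965) and the death receptor Eda2r at -0.24 (adjusted p = 0.138). Their median was 0.02, and -0.0066 after centring on the 75th percentile, where that of all genes was 0.0088 and -0.015.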

How the data were processed

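Total RNA of 6 mouse enterosphere samples was measured on 1 expression array each. The authors deposited log2 expression values for 35556 probe sets, made with RMA and Partek 6.5 per the submitters' processing notes; no settings and no genome build were given in the sources used here. RMA as usually run aligns the arrays by quantiles, which removes changes common to most genes, and the values carry no detection calls. Of the probe sets, 21789 had 1 symbol in the platform annotation, 1621 had several and 12146 were not listed. The 999 genes with more than 1 single-symbol probe set were represented by the brightest over the 6 arrays.

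The 19938 genes were tested for T3 minus control in R 4.3.3 by lmFit and eBayes of limma 3.58.1, with no trend, robust fitting or filter, and intervals and SE come from the same fit. The procedure was tested on simulated data. Groups and replicate numbers came from the sample titles. Genes were named by rule: the 10 listed genes, 4 genes as a check of the treatment, called genes and up to 3 of smallest p in each of 7 related lists, and the 2 genes most correlated with each listed gene. Fosl1 was named in addition, as the only immediate early gene above 0. The genes and lists were chosen with earlier results of these data known. No pair of arrays was a duplicate (SD of the difference over all genes at least 0.137). Listed genes without a single-symbol probe set, such as Ccnb1, Trp53, Btg3 and Bax, were not analysed here. Alternatives were other scalings, filters on dim genes, other uses of probe sets, trend and robust fitting, array quality weights, a replicate block and leaving out each array; the fit with probe sets of several symbols and all repeats for the dimmer Cdkn1b probe set were added after seeing the data.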

Additional observations from a re-analysis of the deposited data

How the results depend on the processing

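The number of the 9 genes that passed stayed at 0 in every planned fit except 2. It was 1 when each probe set was tested on its own (the dimmer Cdkn1b probe set), likewise 1 with probe sets of several symbols added, a setting chosen after seeing the data, and 3 with array quality weights. With those weights Btg1, Cdkn1c (0.24, adjusted p = 0.0392) and Cdkn2a (0.23, adjusted p = 0.0317) passed, but so did 3548 of all genes, or 17.8%, against 618 without weights. All 9 differences kept their sign in every fit, but the sizes moved: without 1 array Cdkn1b, Cdkn1c, Cdkn2a, Cdkn2b, Cdkn2c, Cdkn2d and Gas1 each changed by over 1.5 times, Cdkn2d to as little as 0.0087 and Gas1 to -0.02, whereas Btg1 and Btg2 did not. The number of all genes that passed ranged from 191 to 640 without 1 array and was 962 at an adjusted p under 0.1. With the replicate number as a block, 472 genes and 0 of the 9 passed, and the dimmer Cdkn1b probe set had adjusted p = 0.0691. Deviations of same-numbered arrays correlated at 0.18, 0.02 and 0.00017, so the numbers were not taken to pair the samples. Of 154 fits of single described genes under an alternative, 149 stayed on the same side of the threshold and 5 passed newly. Of those of the related genes, 278 stayed, 28 passed newly and 5 no longer passed; the cause was not tested. The 3 arrays a group and the lack of detection calls limit what small differences can be seen.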
